A study of Macaca mulatta with 9 samples.

Results

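Aldehyde dehydrogenases are enzymes that oxidize aldehydes, which arise from amino acids, fats, retinol and alcohol, to the corresponding acids. The genes described here were all probe sets annotated with the symbol ALDH18A1, ALDH1A1, ALDH1A2, ALDH1A3, ALDH2, ALDH3A2, ALDH6A1, ALDH7A1 or ALDH9A1. Of these 9 genes, 8 had a probe set on the array, out of 14132 named genes in all, and together they had 17 of the 52766 probe sets tested. No probe set carried the symbol ALDH1A1, so this gene was not analysed here. ALDH18A1 was picked for its fall in old ovaries on these same arrays, so its values in old ovaries are described below with no test. The other 7 genes were taken by name, as members of the same family.

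Ovarian RNA of 9 female rhesus monkeys was measured on 9 one-colour Affymetrix arrays, 1 monkey per array. The 3 young monkeys were 3 to 4 years old, had regular cycles and had not bred. The 3 middle-aged monkeys were 7 to 8 years old with good reproductive capacity, and the 3 old monkeys were 18 to 19 years old and no longer reproductive. All were untreated animals, each gave a piece of 1 ovary, and the ovaries of young and middle-aged monkeys were collected near proestrus, whereas no cycle stage is given for the old ones. Each value is an RMA intensity on a linear scale, where RMA is the standard background correction, normalization and summary for such arrays. Array medians lay between 24.2 and 25.8 and first quartiles reached at most 9.57, and without detection calls a probe set near these levels is not known to stand above background.

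The tissue carried markers of ovarian cells. ZP3, a protein of the oocyte coat, had intensities of 377 to 2835 in the 6 young and middle-aged ovaries and 46.3 to 52.4 in the 3 old ones. AMH, a hormone of granulosa cells, spanned 123 to 3292 in the former and 56.4 to 72.3 in the latter. Other granulosa cell genes, and ZP4 among the oocyte genes, went the other way, as given below. STAR, the cholesterol carrier of steroid synthesis, was measured in every ovary, at 646 to 2942 in young and middle-aged and 3448 to 21679 in old ovaries. An ovary is a mixture of these cells, and array values alone cannot tell fewer cells of a type from less RNA per cell. For follicles, the study counted sections of the same ovaries. It reported far fewer follicles in old than in young and middle-aged ovaries, and no antral follicles in old ones.

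The members have separate tasks in metabolism. ALDH18A1 is a mitochondrial enzyme that starts the synthesis of proline and ornithine from glutamate. The ALDH1A enzymes make retinoic acid, a signal for germ cells and epithelia, from retinal. ALDH2 clears acetaldehyde and lipid aldehydes in mitochondria, ALDH3A2 oxidizes long fatty aldehydes, ALDH6A1 and ALDH7A1 act in the breakdown of valine and of lysine, and ALDH9A1 works in carnitine synthesis.

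ALDH18A1 (Entrez gene 703357) had 1 probe set. Its intensity was 919 in young 1, 1192 in young 2 and 651 in young 3. In middle-aged monkeys 1, 2 and 3 it was 1370.4, 919.9 and 470.2. In old monkeys 1, 2 and 3 it was 310.4, 484 and 368. All old ovaries lay below all young ones, while the highest old value lay just above the lowest middle-aged value. Young ovaries averaged 920.7 ± 271 (SD, n = 3), middle-aged ones 920.2 ± 450.1 (SD, n = 3) and old ones 387 ± 88.4 (SD, n = 3). On the log2 scale the old mean was lower than the young mean by a difference of -1.23 and lower than the middle-aged mean by a difference of -1.14, so old ovaries had 2.35-fold and 2.21-fold lower levels. These are the values that chose the gene, and they support nothing further.

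The comparison of middle-aged with young ovaries was not used in the choice of ALDH18A1. There the log2 difference was -0.09, with a 95% interval from -0.98 to 0.80 (limma adjusted p = 1). The spread within these groups was as wide as 470.2 to 1370.4, and middle-aged ovaries held both the highest and the lowest of the 6 values.

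**Figure D1:**
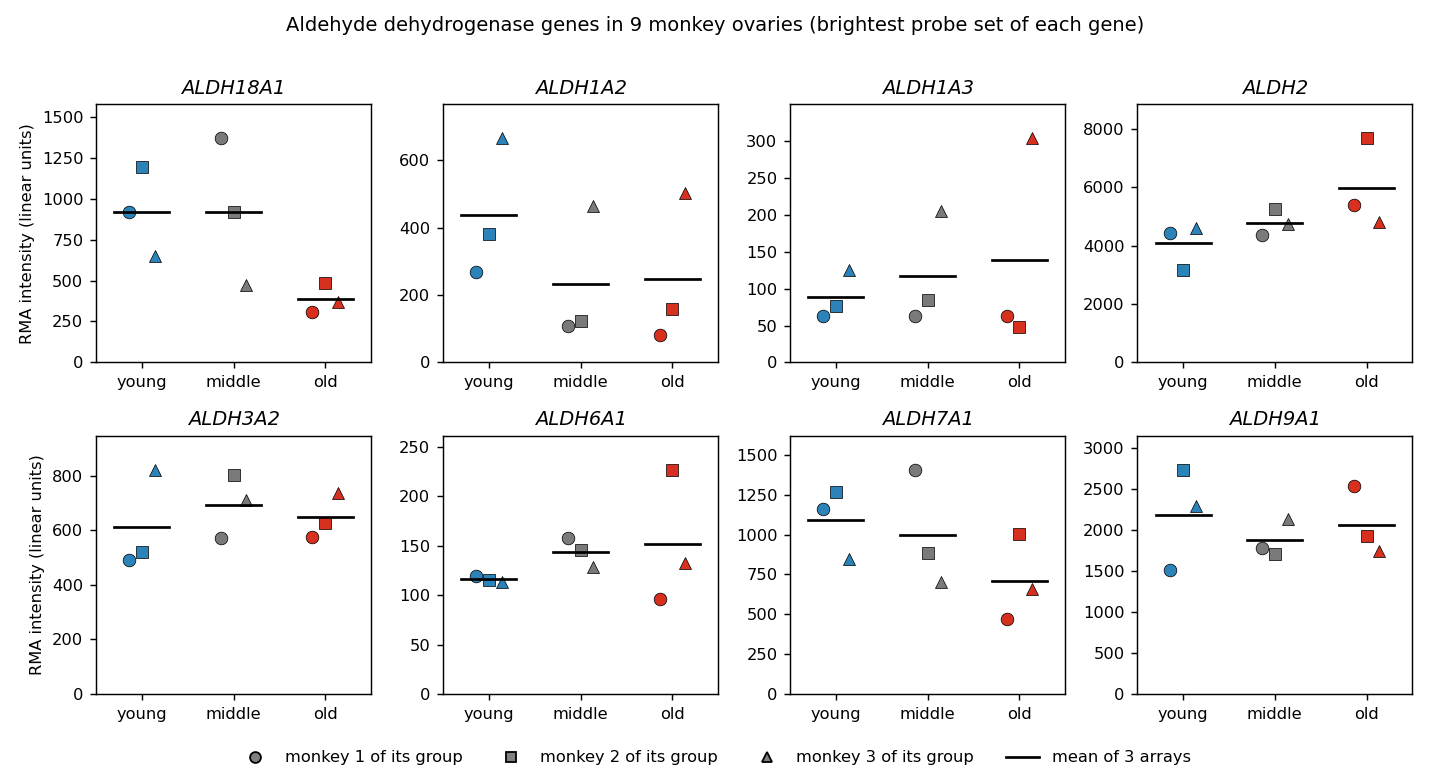
RMA intensity (linear units, axes from 0) of 8 aldehyde dehydrogenase genes in young, middle-aged and old ovaries, with 1 point per monkey, its shape giving the monkey's number within the group, and a bar at the mean of 3. ALDH18A1 lies at 310.4 to 484 in old ovaries and at 651 to 1192 in young ones, and ALDH1A2 and ALDH1A3 are highest in monkey 3 of each age group.

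Oocyte markers were, as a list, lower in old than in young ovaries. Of 30 listed oocyte genes 21 were measured, of which 10 were called lower and none higher in old than in young ovaries, against 0.129% and 0.0265% of all probe sets, and their median log2 difference was -3.29, against 0.01 over all probe sets. Between old and young ovaries, 20 of the 21 had negative log2 differences and 1 a positive one. The latter was ZP4, named after its values were seen, at 0.83 (limma adjusted p = 0.17). The oocyte list holds genes that the study itself picked on these arrays, and ALDH18A1 was picked for its own fall there. A fall shared in the old group was thus fixed in part by these choices and supports nothing further. Per array, the median of the list relative to each gene's mean over 9 arrays was 0.52, 1.41 and 1.68 in young, 0.11, 0.61 and 1.5 in middle-aged and -1.74, -1.74 and -2.29 in old monkeys 1, 2 and 3. ALDH18A1 on the same scale was 0.48, 0.86 and -0.02 in young, 1.06, 0.48 and -0.49 in middle-aged and -1.09, -0.44 and -0.84 in old monkeys. The lowest value was in old 3 for the list and in old 1 for ALDH18A1. Among young and among middle-aged ovaries, the monkeys numbered 3 had the highest oocyte medians but the lowest ALDH18A1.

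Granulosa cell markers gave another picture, with members in both directions. Between old and young ovaries 4 of the 12 had positive and 8 negative log2 differences, and none was called. At an unadjusted p under 0.05, 2 were higher and 3 lower, against 5.58% and 7.89% of all probe sets. The inhibin subunit genes INHA and INHBA, named after their values were seen, had differences of 2.67 and 1.89, and AMH one of -3.88. The median of the 12 measured genes, of 16 listed, was per array 0.06, 0.45 and -0.37 in young, 0.32, 0.13 and -0.67 in middle-aged and 0.05, -0.21 and -1.19 in old monkeys 1, 2 and 3. Like ALDH18A1, it was lowest in monkey 3 among young and among middle-aged ovaries. In the old group, ALDH18A1 was lowest in monkey 1, where the granulosa median was highest. The part of either cell type in the level of ALDH18A1 was not tested.

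Genes whose pattern was most like that of ALDH18A1 were sought among 7162 genes with a mean intensity of at least 100. The closest were EVL, an actin regulator (Pearson r = 0.992 over 9 arrays), LOC709979 (r = 0.98) and ST14, a membrane serine protease of epithelia (r = 0.979). EVL had intensities of 2411, 3073 and 1790 in young, 2861, 2372 and 1447 in middle-aged and 1097, 1577 and 1247 in old monkeys 1, 2 and 3. The bottom was in old 1 for both genes, while the top was in young 2 for EVL and in middle-aged 1 for ALDH18A1. These genes were selected from many for their likeness, the points of 1 age group share that group, and the correlations are descriptions.

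Of the 7 other genes, limma called none between old and young ovaries, where 82 of all 52766 probe sets (0.155%) met the rule for a call, an adjusted p below 0.05 together with at least a 1.5-fold difference. At an unadjusted p under 0.05, 1 of the 7 genes passed with its brightest probe set, ALDH2, against 13.5% of all probe sets. None of the 7 was called between old and middle-aged ovaries, where 0.0341% of probe sets were called, and none passed at an unadjusted p under 0.05, against 7.87%. None of the 8 was called between middle-aged and young ovaries, where 1 probe set (0.0019%) was called. None passed there with its brightest probe set at an unadjusted p under 0.05, against 3.18% of all probe sets. The second probe set of ALDH7A1, described below, did pass. The median log2 difference of the genes was 0.11, -0.01 and 0.06 in these comparisons, beside 0.01, 0.02 and -0.01 over all probe sets. The number of arrays limits what these tests can show, and the intervals below give the sizes that remain possible.

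**Figure D2:**
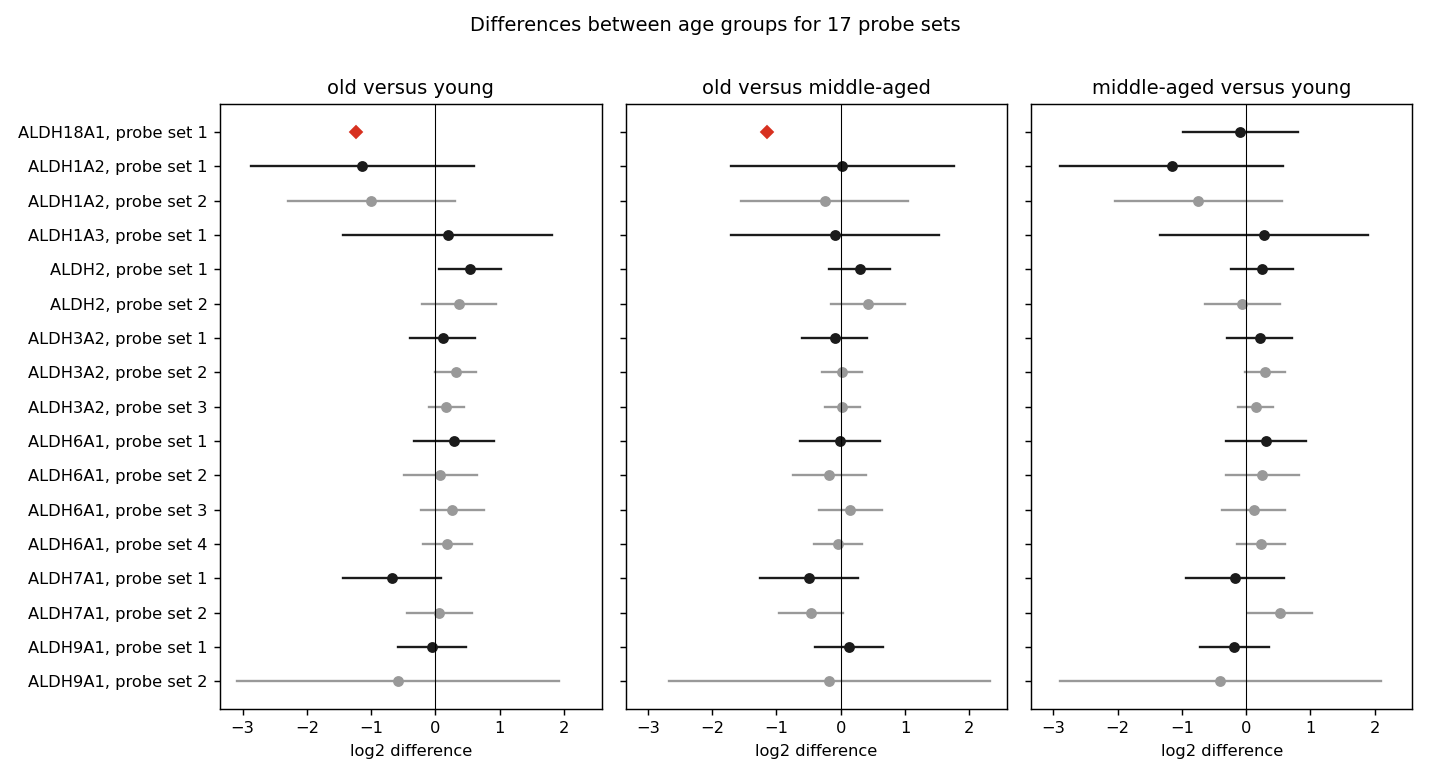
Log2 differences between age groups for the 17 probe sets of 8 genes, with 95% intervals from limma; black marks the brightest probe set of a gene and grey the others. The red diamonds are the old-group values of ALDH18A1 (-1.23 and -1.14), drawn with no interval because they chose the gene, and the intervals of ALDH1A2, ALDH1A3 and the second ALDH9A1 probe set are the widest.

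The enzymes of retinoic acid synthesis differed more between monkeys than between age groups. ALDH1A2 (Entrez gene 702235), whose product is the main such enzyme of many embryonic tissues, had intensities of 269, 381 and 666 in young monkeys 1, 2 and 3. In middle-aged monkeys it was 108, 122 and 465, and in old monkeys 81.3, 158 and 502. The lowest and the highest ovary differed 8.19-fold, and all 3 groups overlapped. The means were 439 ± 205 (SD, n = 3), 232 ± 203 (SD, n = 3) and 247 ± 224 (SD, n = 3) in young, middle-aged and old ovaries. The log2 difference was -1.13 between old and young ovaries (95% interval -2.87 to 0.60, limma adjusted p = 0.556) and -1.16 between middle-aged and young ovaries (interval -2.89 to 0.57, limma adjusted p = 1). Single ovaries weighed on the former, which was -0.54 without old 1 and -1.85 without old 3.

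A second, dimmer probe set of ALDH1A2 had the same shape. It ran from 6.76 in old 1 to 42.1 in young 3, its log2 values correlated with those of the brighter one at r = 0.931 over 9 arrays, and it lay below the array's median on 4 arrays. Its log2 difference was -0.99 between old and young (limma adjusted p = 0.487). Old and middle-aged means could not be ordered for either probe set, with log2 differences of 0.03 and -0.25.

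ALDH1A3 (Entrez gene 694231), a second retinal dehydrogenase, had intensities of 63.5, 77.1 and 125 in young, 63.1, 85.1 and 205 in middle-aged and 63.3, 47.4 and 304 in old monkeys 1, 2 and 3. The spread within the old group covered all other ovaries. The log2 difference between old and young ovaries was 0.19 (95% interval -1.43 to 1.81, limma adjusted p = 0.934), and those of the other comparisons were -0.09 and 0.28. Without the arrays numbered 3, the difference between old and young was -0.35 (limma adjusted p = 0.621) for ALDH1A3 and -1.5 (limma adjusted p = 0.269) for ALDH1A2.

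In each age group the monkey numbered 3 had the highest level of both ALDH1A2 and ALDH1A3. That held for 3 of the 17 probe sets, namely both of ALDH1A2 and that of ALDH1A3, and for 6.41% of all probe sets. The arrays of these monkeys also stood together in a measure of RNA and labelling. The ratio of the GAPDH signal near the 3′ end of the transcript to that near the 5′ end was 4.67, 4.76 and 5.15 in young 3, middle-aged 3 and old 3, and 3.13 to 4.31 in the other 6. For ACTB this ratio was 20.2, 20.3 and 20.8, against 13.3 to 20.1. Probe sets of bacterial RNAs that are added before labelling read 0.54 above the 9-array mean on the log2 scale on young 3 and 0.63 above it on old 3, but -0.22 on middle-aged 3. The part of these measures in the levels of the ALDH1A genes, or in the low ALDH18A1 of young 3 and middle-aged 3, was not tested.

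Cell type markers also differed in the monkeys numbered 3. The medians of the 10 measured stromal fibroblast genes and of the 13 measured endothelial genes were, like ALDH1A2 and ALDH1A3, highest in monkey 3 of each age group. Single genes of these lists did not all do so. COL1A1 of the stromal list, named after its values were seen, was lowest in monkey 3 among young and among old ovaries. The stromal medians of monkeys 1, 2 and 3 were -0.19, -0.20 and -0.13 in young, -0.13, 0.22 and 0.71 in middle-aged and -0.82, 0.05 and 0.32 in old ovaries. The endothelial medians were -0.64, -0.76 and -0.47 in young, -0.34, -0.09 and 0.23 in middle-aged and 0.82, -0.40 and 1.11 in old ovaries. Among young ovaries the stromal medians spanned less than the values of ALDH1A2, which were 0.16, 0.66 and 1.47 on this scale. Smooth muscle and pericyte genes, 9 measured, had array medians of -0.52 in young 3, 0.77 in middle-aged 3 and 1.45 in old 3, and between -0.54 and 0.14 in the other ovaries. Their highest values were thus in the ovaries with the highest ALDH1A3, at 1.11 and 1.68 on this scale in middle-aged 3 and old 3, whereas young 3, with ALDH1A3 at 0.40, was among the lowest for smooth muscle genes. Surface epithelium and mesothelium genes, 15 measured, had a median of 1.49 in young 3, where ALDH1A2 was highest at 1.47. They stood at -0.36 and -0.32 in middle-aged 3 and old 3, where ALDH1A2 was at 0.95 and 1.06. In monkeys 1 and 2 their medians were 0.15 and 0.32 in young, -0.45 and -0.11 in middle-aged and -0.47 and -0.13 in old ovaries. ALDH1A2 was there at 0.16 and 0.66, -1.16 and -0.98, and -1.57 and -0.60. Their median log2 difference was -0.97 for old against young and -0.92 for middle-aged against young, with none called, beside -1.13 and -1.16 for ALDH1A2. Steroid-making cell genes, 7 measured, had medians of -1.44 and -1.67 in young 3 and middle-aged 3 and of -0.18 in old 3. The part of these cell types was not tested.

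**Figure D3:**
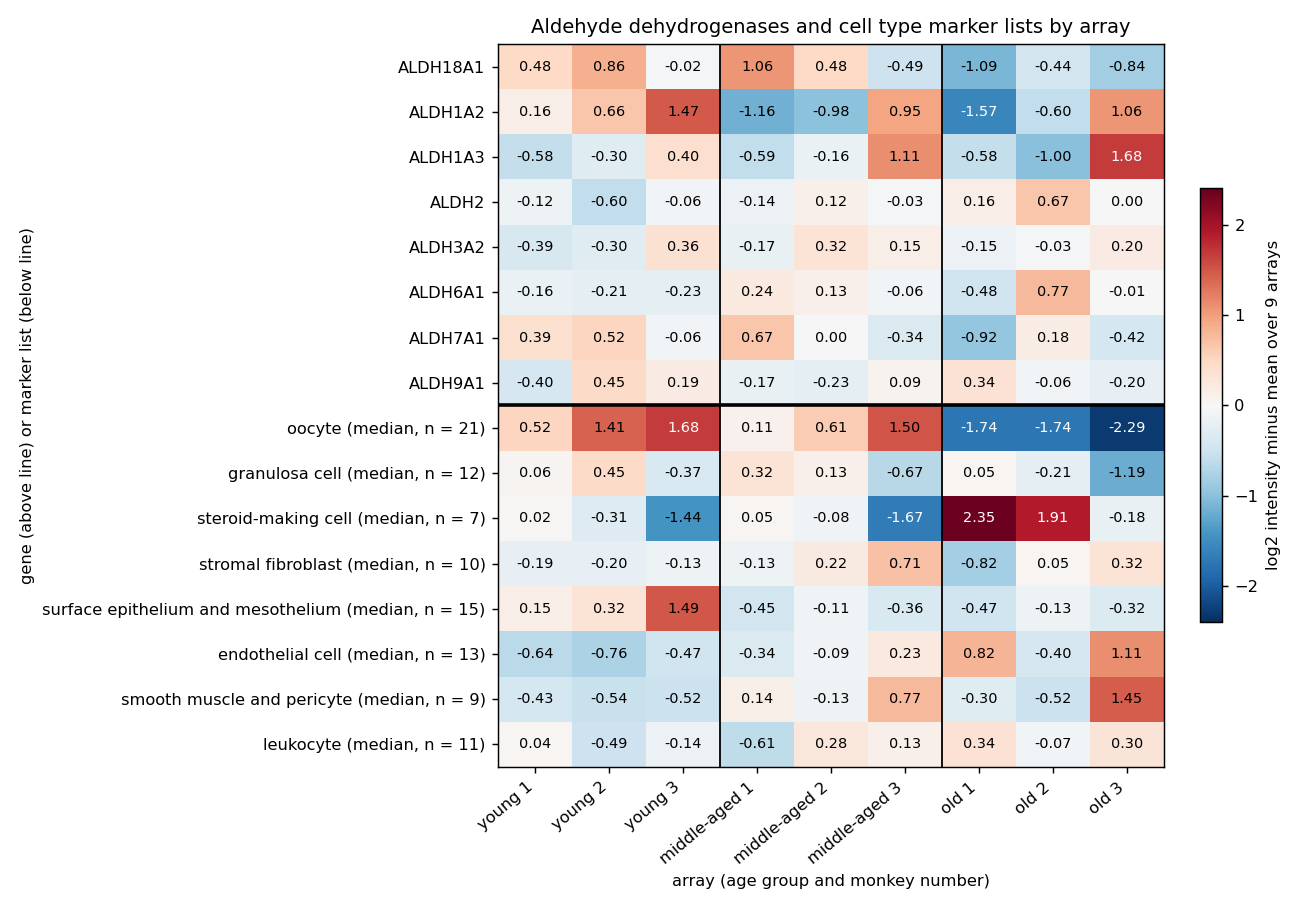
Deviation of log2 intensity from the average of all 9 arrays (colour scale, value printed in each cell) for the 8 aldehyde dehydrogenase genes above the line and the median of 8 cell type marker lists below it, with arrays in columns by age group. ALDH18A1 and the oocyte median are below 0 on all 3 old arrays, and ALDH1A3 is at 1.68 in old 3 with the smooth muscle median at 1.45.

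The genes nearest to ALDH1A2 and ALDH1A3 were likewise highest in monkey 3 of each age group, except SULF1, which was highest in young 2 among young ovaries. For ALDH1A2 they were CCDC90B (r = 0.944 over 9 arrays), GAS7 (r = 0.933) and SULF1, an editor of heparan sulfate (r = 0.931). GAS7 had 927 in young 3, 1034 in middle-aged 3 and 639 in old 3, and 107 in old 1. For ALDH1A3 they were PPP1R12A, a subunit of myosin phosphatase (r = 0.98), the transcription factor gene FOXC1 (r = 0.97) and PDGFA, a platelet-derived growth factor (r = 0.969). FOXC1 was at 614 in middle-aged 3 and 934 in old 3, and at 115 to 199 in the other 7 ovaries.

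Retinoid handling as a whole showed no call. The list of binding proteins, retinol and retinal enzymes, receptors and responsive genes had 20 of 28 genes measured, and none was called in any comparison. At an unadjusted p under 0.05, 1 of the 20 was higher and none lower between old and young ovaries, against 5.58% and 7.89% of all probe sets. That gene was RARRES1, a retinoic acid responsive gene, with intensities of 247, 211 and 893 in young, 95.3, 774 and 792 in middle-aged and 5992, 765 and 1629 in old monkeys. Its log2 difference was 2.44 (95% interval 0.09 to 4.80, limma adjusted p = 0.355), the groups overlapped, and a single ovary, old 1, lay far above the rest. RDH10, which oxidizes retinol to retinal, had a log2 difference of -0.71 (limma adjusted p = 0.466), and CYP26A1, which degrades retinoic acid, one of 0.29 at intensities of 10.3 to 16.4, near the first quartile of the arrays.

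ALDH2 (Entrez gene 713451) was brightly measured in all ovaries. Its intensity was 4448, 3176 and 4615 in young, 4364, 5250.4 and 4741 in middle-aged and 5409, 7686 and 4818 in old monkeys 1, 2 and 3. Every old ovary was above every young one, and the middle-aged range overlapped both. The means were 4079.5 ± 787 (SD, n = 3), 4785 ± 445 (SD, n = 3) and 5971 ± 1514 (SD, n = 3). The log2 difference between old and young ovaries was 0.54 (95% interval 0.06 to 1.02, unadjusted p = 0.031, limma adjusted p = 0.32), a fold of 1.45 that reached neither limit. Against middle-aged ovaries it was 0.29 (interval -0.18 to 0.77, limma adjusted p = 0.776).

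The second probe set of ALDH2 had intensities of 92.6 to 220.9, with the lowest in young 2 and the highest in old 2, the same ovaries as for the first. Its value was 120.0, equal to the 4 decimals deposited, on young 3, middle-aged 1, middle-aged 2 and old 3. Such exact repeats of at least 4 equal values occurred in 5.81% of all probe sets and in no other probe set of the 8 genes. The log2 difference between old and young was 0.37 (limma adjusted p = 0.568). The genes most like the first probe set were FAM20B, a kinase of proteoglycan synthesis (r = 0.969 over 9 arrays), LOC709103 (r = 0.948) and PWWP3B (r = 0.935).

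ALDH3A2 (Entrez gene 703661), the fatty aldehyde dehydrogenase of the endoplasmic reticulum, was the most even of the 8 genes. Its brightest probe set had 489.9, 522 and 822 in young, 570.3, 801 and 710.0 in middle-aged and 577, 626 and 737 in old monkeys, so that the highest ovary was 1.68-fold above the lowest. The log2 difference between old and young was 0.11 (95% interval -0.39 to 0.62, limma adjusted p = 0.862). The second probe set had 238, 326 and 310.2 in young and 344 to 369 in old ovaries, with no overlap. Its log2 difference was 0.31 (95% interval 0.00 to 0.63, unadjusted p = 0.0493, limma adjusted p = 0.37), and middle-aged ovaries, at 329.9 to 380.3, also lay above the young ones. The third probe set ran from 56.5 in young 1 to 77.9 in old 3, with a log2 difference of 0.17. All 3 probe sets were lowest in young 1. The closest genes to the brightest one were the vesicle traffic gene RAB2A (r = 0.947 over 9 arrays), the RNA sensor gene IFIH1 (r = 0.946) and ANKHD1 (r = 0.937).

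ALDH6A1 (Entrez gene 698755), the methylmalonate semialdehyde dehydrogenase of valine breakdown, had 4 probe sets. The brightest had 119.6, 116 and 114 in young, 157.5, 146 and 128 in middle-aged and 95.9, 227 and 132 in old monkeys 1, 2 and 3. The young values lay within a narrow band below all middle-aged values, while the old group held both the lowest and the highest ovary. The log2 difference was 0.29 between old and young (95% interval -0.33 to 0.91, limma adjusted p = 0.68) and 0.30 between middle-aged and young ovaries (interval -0.32 to 0.92, limma adjusted p = 1). The next 2 probe sets were also highest in old 2, at 182 and 179.8. The dimmest stayed at 9.40 to 13.1, below the median of every array, and correlated with the brightest at r = 0.195 over 9 arrays, against r = 0.898 and r = 0.837 for the others. GSTM3, a glutathione transferase, was among the closest genes (r = 0.936 over 9 arrays), with 13932 in old 2 and at most 6581 elsewhere. SHISA4 (r = 0.956) and QPRT, an enzyme of NAD synthesis (r = 0.92), were the others.

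ALDH7A1 (Entrez gene 702749), the enzyme that oxidizes the semialdehyde of lysine breakdown, had an intensity of 1159.9, 1268 and 848 in young, 1408.5, 885 and 699.9 in middle-aged and 468, 1001 and 662 in old monkeys 1, 2 and 3. The groups overlapped through old 2, which lay above young 3. The means were 1092 ± 218 (SD, n = 3), 998 ± 367 (SD, n = 3) and 710.3 ± 270.0 (SD, n = 3). The log2 difference between old and young was -0.67 (95% interval -1.43 to 0.10, limma adjusted p = 0.431) and that between old and middle-aged -0.50 (interval -1.26 to 0.27, limma adjusted p = 0.763). As for ALDH18A1, the highest level was in middle-aged 1 and the lowest in old 1. Its closest genes were ACIN1 (r = 0.979 over 9 arrays), RAVER2 (r = 0.975) and BTBD2 (r = 0.968).

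The second probe set of ALDH7A1 gave other differences. It read 42.6, 35.5 and 52.2 in young, 60.7, 63.3 and 61.4 in middle-aged and 32.3, 57.3 and 48.7 in old monkeys. All middle-aged ovaries lay above all young and old ones. The log2 difference was 0.53 between middle-aged and young (95% interval 0.02 to 1.03, unadjusted p = 0.042, limma adjusted p = 1), -0.46 between old and middle-aged (limma adjusted p = 0.66) and 0.06 between old and young ovaries (limma adjusted p = 0.928). Its correlation with the brighter probe set was r = 0.256 over 9 arrays, and with both averaged the difference between old and young was -0.30 (limma adjusted p = 0.619).

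ALDH9A1 (Entrez gene 695383), which makes the precursor of carnitine, had intensities of 1517, 2742 and 2293 in young, 1782, 1712 and 2141 in middle-aged and 2537, 1925 and 1747 in old monkeys. The groups overlapped, and the log2 difference between old and young was -0.05 (95% interval -0.59 to 0.48, limma adjusted p = 0.947). The second probe set spread 18.0-fold. It had 138, 199 and 64.3 in young, 150.8, 179.9 and 28.1 in middle-aged and 416, 54.8 and 23.1 in old monkeys, so that monkey 3 was lowest in each group, as in 7.94% of all probe sets. Its correlation with the brighter one was r = 0.266 over 9 arrays. Its log2 difference between old and young was -0.58 with a 95% interval from -3.08 to 1.92 (limma adjusted p = 0.858). SLC27A5 (r = 0.924 over 9 arrays), the ubiquitin-activating enzyme gene UBA6 (r = 0.923) and LOC701221 (r = 0.912) were most like the brighter probe set.

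**Figure D4:**
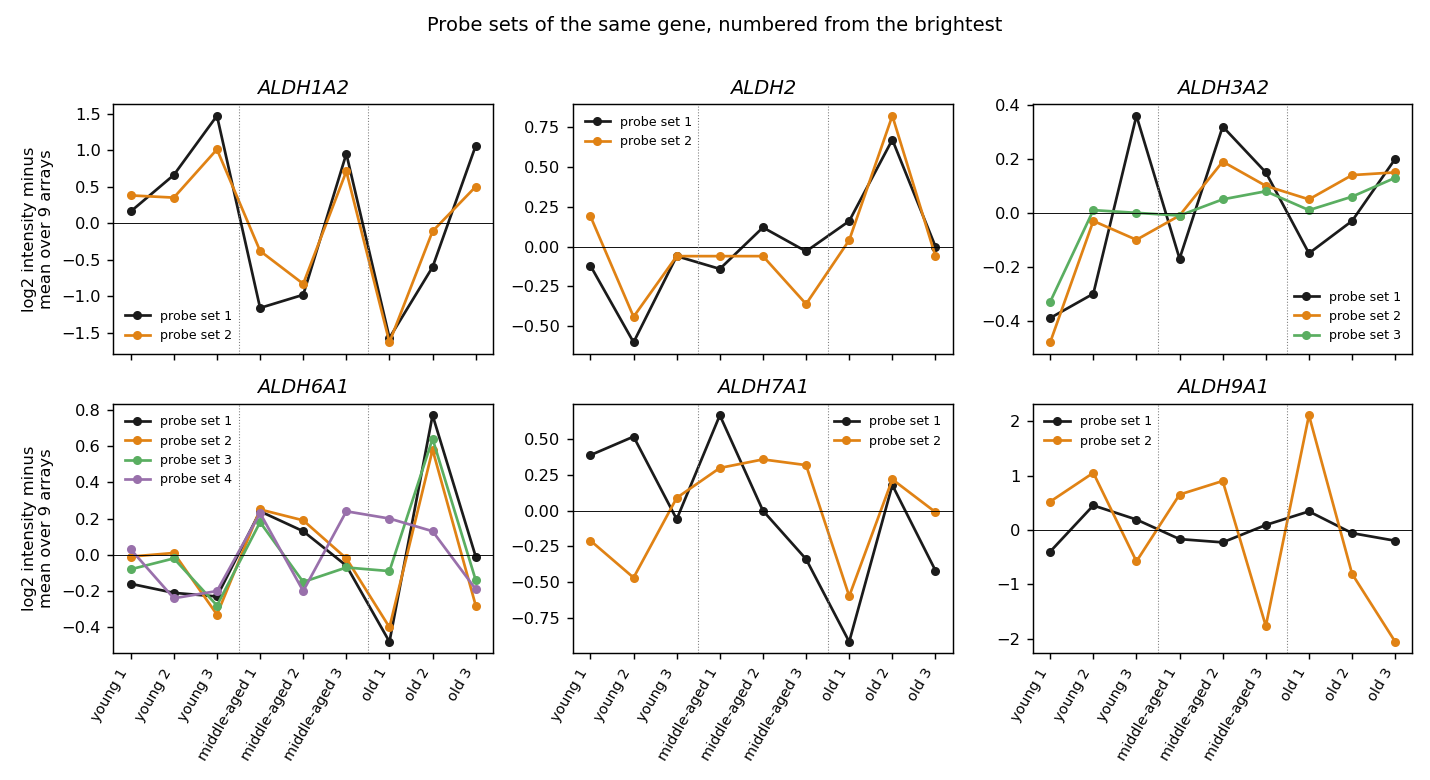
Log2 intensity minus the mean over 9 arrays for each probe set of the 6 genes with more than 1, by array, with the brightest probe set in black and dotted lines between age groups; the vertical scales differ between panels. The probe sets of ALDH1A2 run together (r = 0.931), whereas those of ALDH7A1 (r = 0.256) and ALDH9A1 (r = 0.266) and the dimmest of ALDH6A1 (r = 0.195) part from the brightest.

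Over all their probe sets, 2 of 16 other than that of ALDH18A1 had every old ovary above every young one, those of ALDH2 and ALDH3A2 named above, and none had every old ovary below, against 7.38% and 9.46% of all probe sets. Between old and middle-aged ovaries none was higher and 1 lower without overlap, against 5.33% and 6.49%. Between middle-aged and young ovaries 3 of 17 were higher and none lower without overlap, against 4.43% and 4.35%, and these belonged to ALDH3A2, ALDH6A1 and ALDH7A1.

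The remaining aldehyde dehydrogenases with a symbol on the array, 8 of a list of 10, had no call either. ALDH1B1, a mitochondrial relative of ALDH2, had 103, 74.4 and 88.2 in young, 106, 100.6 and 99.1 in middle-aged and 133, 125 and 132 in old monkeys. All old ovaries were above all others. The log2 difference was 0.57 between old and young (95% interval 0.27 to 0.86, unadjusted p = 0.0021, limma adjusted p = 0.138) and 0.35 between old and middle-aged (limma adjusted p = 0.582). ALDH1L1, a folate enzyme, had the lowest estimate of the list with -1.18 (interval -2.65 to 0.30, limma adjusted p = 0.47), with 187, 162 and 76.0 in young and 47.3, 48.6 and 87.1 in old monkeys.

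In the pathway of ALDH18A1, 14 of 20 genes of proline, ornithine and glutamate were measured and none was called. At an unadjusted p under 0.05, 2 were higher and 1 lower between old and young ovaries, while 5.58% of all probe sets were higher and 7.89% lower. GLUD1, the mitochondrial glutamate dehydrogenase, had 160.2, 95.5 and 86.9 in young, 177.6, 175 and 208 in middle-aged and 386, 205 and 219.9 in old monkeys, with a log2 difference of 1.24 (95% interval 0.57 to 1.91, limma adjusted p = 0.147). P4HA2, a prolyl hydroxylase of collagen, had 493, 1035 and 445 in young and 320.0, 263 and 203 in old monkeys, with a log2 difference of -1.24 (interval -2.16 to -0.33, limma adjusted p = 0.246). PRODH2 had a difference of 0.28 (limma adjusted p = 0.361). PYCR1, which carries out the final step of proline synthesis, had 93.3 to 137 in young and 89.5 to 104 in old ovaries, a log2 difference of -0.22 (limma adjusted p = 0.576).

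Breakdown of branched-chain amino acids and lysine, the setting of ALDH6A1 and ALDH7A1, had 19 of 26 genes measured and none called. At an unadjusted p under 0.05, 4 were higher and none lower between old and young ovaries, against 5.58% and 7.89% of all probe sets. PIPOX, an oxidase of pipecolic acid from lysine, had 12.8, 15.0 and 20.6 in young and 48.0, 24.4 and 52.8 in old monkeys, levels around the array medians. Its log2 difference was 1.32 (95% interval 0.64 to 2.0, limma adjusted p = 0.133). AUH, an enzyme of leucine breakdown, had 209, 181 and 167 in young, 175, 202 and 182 in middle-aged and 472, 400.4 and 226 in old monkeys, with a log2 difference of 0.92 (interval 0.35 to 1.49, limma adjusted p = 0.189). For both, every old ovary lay above every other ovary.

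Steroid-making cell markers had estimates in the same direction as PIPOX and AUH. All 7 measured genes had positive log2 differences between old and young ovaries, and none was called. Their median was 1.31, against 0.01 over all probe sets. Per array their median was 2.35 in old 1, 1.91 in old 2 and -0.18 in old 3, against -1.67 to 0.05 in the other ovaries. AUH followed the same order within the old group, while PIPOX was highest in old 3. Endothelial genes had positive log2 differences between old and young ovaries in 13 of 13, with a median of 1.17. At an unadjusted p under 0.05, 9 were higher, against 5.58% of all probe sets, and none was called. Their medians in old monkeys 1, 2 and 3, given above, had the same order as PIPOX. Smooth muscle genes had positive differences in 9 of 9, with a median of 0.83 and none called. Leukocyte genes had positive differences in 10 of 11, with a median of 0.375 and none called. The medians of the oocyte, granulosa, stromal and surface epithelium lists were negative. The shared orders among 3 old ovaries were noticed after the values were seen, with several lists to choose from. The part of these cells in the levels of PIPOX and AUH was not tested.

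Carnitine, betaine and fatty aldehyde genes around ALDH3A2, ALDH7A1 and ALDH9A1 had 16 of 18 measured and none called. Between old and young ovaries 2 were higher and 2 lower at an unadjusted p under 0.05, against 5.58% and 7.89% of all probe sets. SGPL1, the lyase that yields the fatty aldehyde for ALDH3A2 from sphingosine phosphate, had 428.5, 448 and 341 in young and 230.2, 335 and 194.5 in old monkeys, with a log2 difference of -0.71 (95% interval -1.35 to -0.06, limma adjusted p = 0.33). BHMT, which uses betaine to methylate homocysteine, had a difference of -1.23 (limma adjusted p = 0.297) at intensities of 12.1 to 65.9. DMGDH, which acts on the dimethylglycine left by BHMT, was at 18.0 and 39.7 in old 1 and old 2 and at 7.19 to 9.05 elsewhere, around or below the first quartile of the arrays, so the size of its difference is not given. Of the alcohol and aldehyde oxidoreductases, 12 of 20 were measured, none was called and none passed at an unadjusted p under 0.05 in any comparison. ADH5, the formaldehyde-handling alcohol dehydrogenase, had a log2 difference of -0.10 between old and young (interval -0.53 to 0.32, limma adjusted p = 0.851).

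Over the 88 different pathway genes measured, 14.8% had an unadjusted p under 0.05 between old and young ovaries, beside 13.5% of all probe sets. The share was 7.95% beside 7.87% between old and middle-aged and 2.27% beside 3.18% between middle-aged and young ovaries. The median log2 differences were 0.12, 0.09 and 0.01.

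**Figure D5:**
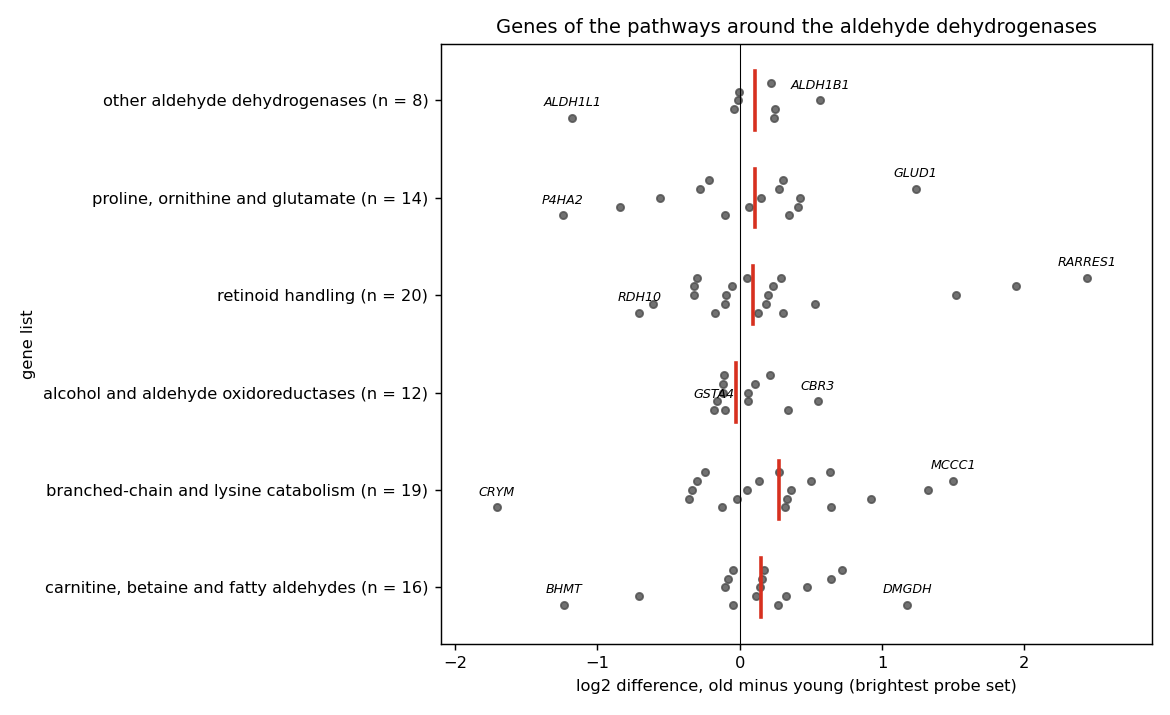
Log2 difference between old and young ovaries (old minus young, brightest probe set) for each measured gene of 6 pathway lists, with a red bar at the list's median and the names of the lowest and highest gene of each list. The medians lie between -0.02 and 0.28, and no gene shown was called.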

How the data were processed

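Ovarian RNA of 9 monkeys was hybridized to 9 arrays. The deposited intensity values are on a linear scale and, per the labels, came from RMA, whose version is not stated. The methods section instead describes LOWESS normalization with dye reversal. Signal over background could not be assessed. Of 52865 probe sets, 99 controls were left out, and log2 values of 52766 were fitted over 9 arrays in R 4.3.3 by limma 3.58.1, with a mean for each age group. A call needed a Benjamini-Hochberg adjusted p under 0.05 over all probe sets and a fold of at least 1.5. SAM, which the study used, was not run. Symbols come from the array annotation (1 symbol for 24956 probe sets). A gene is represented by its brightest probe set on average.

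The members and gene lists were chosen with earlier results of these data known. All probe sets of the members are described, and of each list up to 3 genes with the smallest p per direction were eligible to be named, plus the 3 genes most like each member. PYCR1, ADH5, ZP3, AMH and STAR were named for their roles. No protein or promoter sequences were used. Samples are separate monkeys grouped by the titles. The fit was tested on simulated data. Alternatives were centring, quantile normalization, probe sets with a mean intensity of at least 50, no fold minimum, only the groups compared, other variances, array weights, a block for the replicate number, averaged probe sets, and leaving out arrays.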

Additional observations from a re-analysis of the deposited data

How the results depend on the processing

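No member was called under any of the 19 alternatives in the comparisons in which it was tested, so ALDH18A1 counts only for middle-aged against young. The log2 difference of ALDH18A1 ranged from -1.46 to -1.02 for old against young and from -1.56 to -0.79 for old against middle-aged. These ranges come from the values that chose the gene and support nothing further. Of the members' log2 differences under the alternatives, 422 kept the sign of the value reported and 34 had the opposite sign. Part of the 422 was fixed in advance. No fold minimum, the intensity minimum, other variances, only the groups compared and the replicate block cannot change a difference. Leaving out an array of a group that is not compared cannot do so either. The 422 also include the old-group differences of ALDH18A1, which chose the gene. For old against young, leaving out 1 array gave -0.63 to 0.71 for ALDH1A3, -0.03 to 0.35 for ALDH3A2, -0.04 to 0.58 for ALDH6A1 and -0.3 to 0.13 for ALDH9A1, and leaving out the arrays numbered 3 gave -0.35 for ALDH1A3 and 0.12 for ALDH9A1. ALDH1A2 kept its sign there, at -1.85 to -0.54. For old against middle-aged, leaving out 1 array gave -0.69 to 0.7 for ALDH1A2, -0.91 to 0.43 for ALDH1A3, -0.23 to 0.02 for ALDH3A2, -0.35 to 0.27 for ALDH6A1 and -0.03 to 0.24 for ALDH9A1. There ALDH6A1 was 0 with centred arrays, 0.01 with quantile normalization and 0.22 with array weights, ALDH1A2 was -0.11 and ALDH9A1 -0.03 with averaged probe sets, and ALDH1A2 was -0.02 without the arrays numbered 3. For middle-aged against young, leaving out 1 array gave -0.44 to 0.33 for ALDH18A1, -0.21 to 0.64 for ALDH1A3, -0.45 to 0.05 for ALDH7A1 and -0.42 to 0 for ALDH9A1, ALDH7A1 was 0.18 with averaged probe sets and ALDH18A1 0.1 without the arrays numbered 3. The counts over all probe sets moved. From 82 for old against young, they went to 129 with probe sets of a mean intensity of at least 50, 27 with only the groups compared, 229 with a replicate block, 54 with averaged probe sets, 2 without the arrays numbered 3, and 4 to 198 when 1 array was left out, the counts being 4 without young 2, 9 without young 3, 51 without middle-aged 1, 29 without middle-aged 2, 53 without old 1 and 198 without old 2. From 18 for old against middle-aged, they went to 9 with centred arrays, 5 with only the groups compared, 28 with a replicate block, 2 without the arrays numbered 3, and 1 to 42 with 1 array left out (4 without young 2, 5 without young 3, 5 without middle-aged 2, 1 without middle-aged 3, 6 without old 1, 42 without old 3). The 1 call for middle-aged against young became 0 with the intensity minimum, 0 without the arrays numbered 3, and 0 to 1 with 1 array left out, being 0 without any 1 young array or middle-aged 3. The cause was not tested. The titles name the numbers as biological replicates, and they were not taken as pairs in the main fit. Deviations of same-numbered arrays correlated from -0.025 to 0.41, over 0.1 in 5 of 9 pairs, and 5 of 9 arrays correlated best with their own number. The arrays numbered 3 correlated with each other at 0.41, 0.252 and 0.355, and each correlated best with another of that number. Those numbered 2 correlated at 0.056, 0.043 and -0.025. Whatever the arrays numbered 3 share is thus not modelled in the main fit. Each age group has 1 array of each number, so the replicate block changes only the error of a difference. With it, ALDH1A2 between old and young, at -1.13 by construction, had a limma adjusted p of 0.131.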
